A study of Mus musculus with 8 samples.

Results

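Pericytes and vascular smooth muscle cells, together called mural cells, were followed here through 9 genes commonly used to mark them: Rgs5, Pdgfrb, Cspg4, Notch3, Des, Abcc9, Kcnj8, Mcam and Gja4. The genes were found by their symbol in the platform's annotation and had 13 probes, out of 16593 genes and 25697 probes on the arrays. Abcc9 and Mcam had 3 probes each and the other members 1. Where a gene had several probes, the brightest over all arrays stood for it.

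The arrays measured RNA of cells sorted from mammary glands of nulliparous mice, 16 weeks old, of the strain B6.129P2-AXLtm1Dgen, in which lacZ is inserted into Axl. Cells were stained with FDG, which fluoresces once the lacZ product beta-galactosidase cleaves it. The gates thus sort cells by beta-galactosidase activity, as a reporter of the Axl locus. The 4 groups of 2 arrays each were AxlLacZ/LacZ (homozygous) FDG-high, AxlLacZ/LacZ FDG-low, Axl+/LacZ (heterozygous) FDG-high and Axl+/LacZ FDG-low cells. FDG-high cells were the brightest 5% and FDG-low cells the dimmest 65% of single viable cells after CD45+, CD31+ and CD11b+ cells had been dumped. Every animal thus carried at least 1 lacZ allele, and there was no group with wild-type Axl. The dump gate was aimed at leukocytes and endothelial cells in all 4 groups, and it held no marker that selects or removes mural cells. Glands of several animals of 1 genotype were pooled for every sample. Whether the 2 arrays of a group stand for separate pools is not stated in the labels, so the p-values reflect the spread between the arrays as hybridised, which may be technical.

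Mural cells wrap the endothelium of capillaries, arterioles and venules and regulate vessel tone and stability. Endothelial PDGF-B recruits them through PDGF receptor beta, endothelial Jagged ligands act on their NOTCH3 receptor, and their ATP-sensitive potassium channels and gap junctions link them to tissue metabolism and to neighbouring cells. Most of their markers are shared with other cells, among them fibroblasts and myoepithelial cells, so no single marker identifies a pericyte.

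Promoters are shown for Rgs5, the member with the largest gate difference, and for Abcc9, the only one of 8 members searched whose promoter held the motif sought. Both sequences are the 250 bases before the gene's start in RefSeq (GRCm38.p6), read 5′ to 3′ on the gene's strand. The Rgs5 window lies at chr1:169655251-169655500 (plus strand) and the Abcc9 window at chr6:142702275-142702524 (minus strand). Capitals mark TGGGAA, the core of the site bound by RBPJ, the DNA-binding partner of Notch receptors.
Rgs5: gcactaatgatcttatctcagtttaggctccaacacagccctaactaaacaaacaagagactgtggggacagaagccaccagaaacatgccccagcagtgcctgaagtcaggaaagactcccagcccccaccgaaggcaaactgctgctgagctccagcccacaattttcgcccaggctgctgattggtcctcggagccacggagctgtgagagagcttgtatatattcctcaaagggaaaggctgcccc
Abcc9: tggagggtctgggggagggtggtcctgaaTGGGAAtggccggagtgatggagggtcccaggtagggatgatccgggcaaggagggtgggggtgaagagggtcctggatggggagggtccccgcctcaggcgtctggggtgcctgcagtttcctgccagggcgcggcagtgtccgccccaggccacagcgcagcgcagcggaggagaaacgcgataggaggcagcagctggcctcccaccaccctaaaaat
The Rgs5 window holds no match, and the Abcc9 match begins 221 bases before the start. On either strand, TGGGAA occurred in 21.6% of 32851 such windows in the table, and in 1 of the 8 members' windows. A match of these letters is a description of the window and not a binding site.

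Median raw intensities lay between 115.7 and 126.7 units on the 8 arrays, and between 48.1% and 55.5% of probes were above background. The background level of an array was taken from 1326 probes of chemosensory receptors (odorant, vomeronasal, trace amine), as their 95th percentile, and it corresponded to normalized log2 intensities of 6.09 to 6.20. The targeted gene was checked first. Axl measured 6.08 and 6.40 in homozygous FDG-high, 6.24 and 6.40 in homozygous FDG-low, 8.89 and 9.13 in heterozygous FDG-high and 8.45 and 7.98 in heterozygous FDG-low cells, so both homozygous groups lay below both heterozygous groups. The homozygous minus heterozygous difference was -2.77 in FDG-high cells (limma, adjusted p = 0.080) and -1.90 in FDG-low cells (adjusted p = 0.0065), a call lost when either homozygous FDG-low array was left out (adjusted p = 0.066 and 0.051). Between the gates of heterozygous glands, Axl differed by 0.80 ± 0.20 (FDG-high minus FDG-low) and did not pass (limma, adjusted p = 0.24). It was above background on both heterozygous FDG-low arrays. The position of the Axl probe relative to the lacZ insertion is not known here, so its level is a limited check of the labels.

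Of the 9 members, 5 were above background on all 8 arrays: Rgs5, Cspg4, Notch3, Des and Mcam. Over all genes, 39.6% were. Abcc9 was above background on 6 arrays, Pdgfrb on 4, Kcnj8 on 3 and Gja4 on 1. Counting genes above background on both arrays of a group, homozygous FDG-high cells had 6 members (51.3% of all genes), homozygous FDG-low cells 7 (46% of all genes), heterozygous FDG-high cells 6 (49.9%) and heterozygous FDG-low cells 5 (49.4%). In all, 7 of the 9 members met this in at least 1 group, and 57.9% of all genes did. Pdgfrb, the receptor most often used to define pericytes, was thus near or below the background level in every group except homozygous FDG-low cells. In no group were all 9 members above background. Because these were bulk samples, fewer cells of a type and less RNA per cell cannot be told apart.

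**Figure D1:**
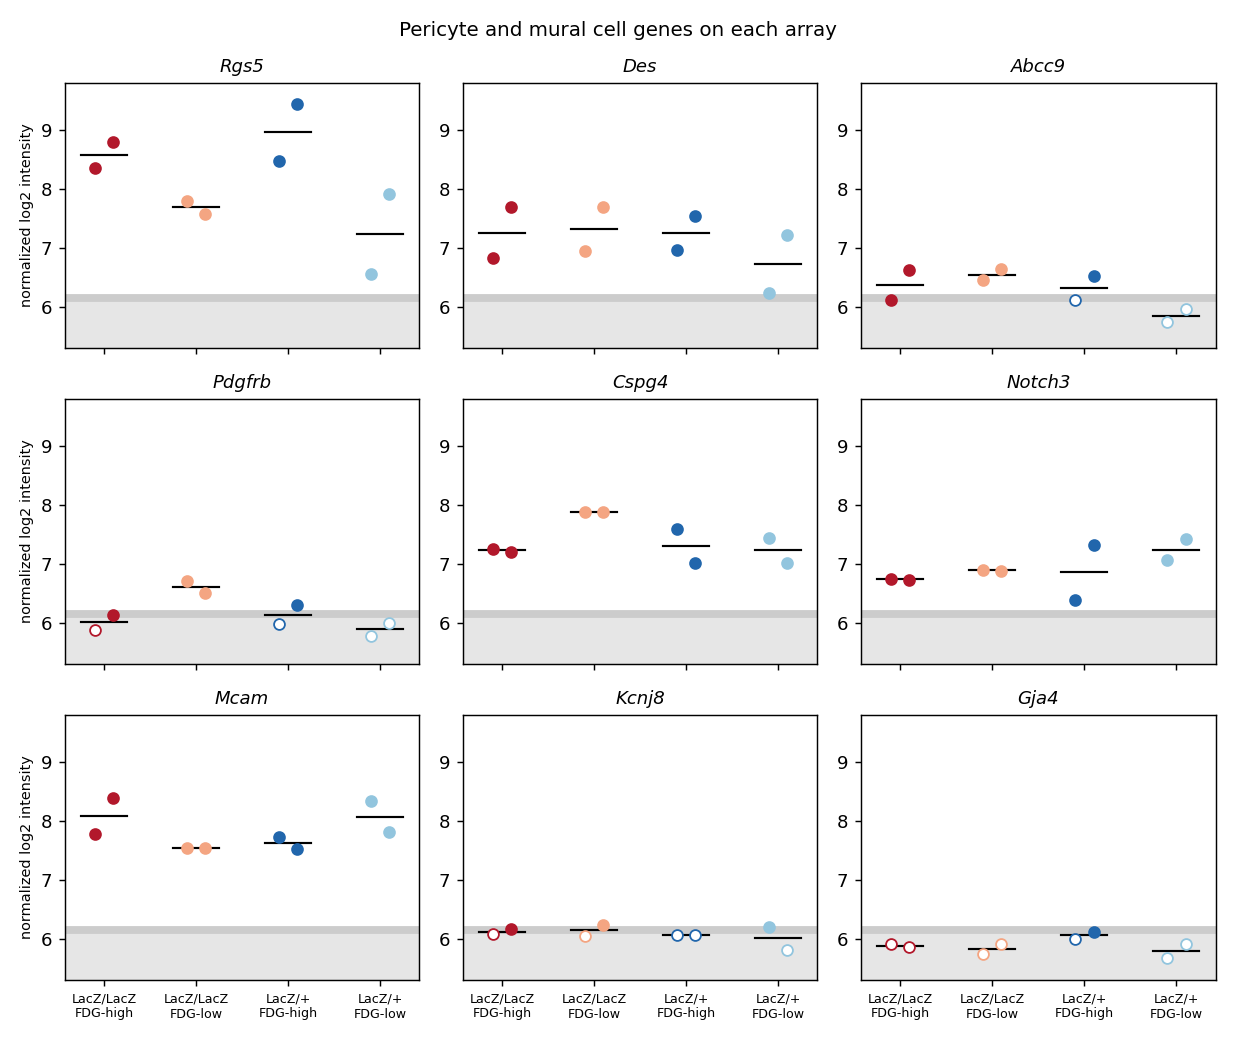
Normalized log2 intensity of each member on each array, by group; points are arrays (filled where the plotted probe was above background, open where it was not), horizontal lines are group means of 2 arrays and grey marks the range of the background level. Rgs5 is higher in the FDG-high groups, Kcnj8 and Gja4 stay close to the background level, and Pdgfrb stands clear of it on both homozygous FDG-low arrays.

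No member passed the threshold (adjusted p under 0.05 over all genes, limma) between FDG-high and FDG-low cells in either genotype. In homozygous glands 0.392% of all genes passed, and in heterozygous glands 0.00603%, which is 1 gene. At an unadjusted p under 0.05 there were 2 members in homozygous glands (Pdgfrb and Cspg4, both lower in FDG-high cells; 12.9% of all genes) and 1 in heterozygous glands (Rgs5, higher; 10.3% of all genes). The largest gate difference among the members belonged to Rgs5, with the same sign in both genotypes. Mcam had opposite signs in the genotypes.

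Rgs5 encodes a regulator that shortens signalling by G protein-coupled receptors and is a widely used pericyte marker. Its normalized log2 intensity was 8.36 and 8.80 in homozygous FDG-high cells, against 7.80 and 7.58 in homozygous FDG-low cells. In heterozygous glands it was 8.48 and 9.44 in FDG-high cells, against 6.56 and 7.91 in FDG-low cells. All 4 FDG-high arrays lay above all 4 FDG-low arrays, a separation seen in the same direction in 1.47% of all genes. The lowest value, on the first heterozygous FDG-low array, was still above background.

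The FDG-high minus FDG-low difference in Rgs5 was 0.89 ± 0.49 (log2, SE) in homozygous glands, or 1.86-fold (limma, adjusted p = 0.53), and 1.72 ± 0.49 in heterozygous glands, or 3.29-fold (adjusted p = 0.30). Averaged over genotypes, in a contrast added after the data had been seen, it was 1.31 ± 0.35 (unadjusted p = 0.0083, adjusted p = 0.38), and 0 genes passed in that contrast (8.85% at an unadjusted p under 0.05). Ranked from the most positive averaged difference down, Rgs5 was at place 22 of 16593 genes. The difference between the genotypes in this gate effect was -0.83 ± 0.69 (adjusted p = 0.71). The heterozygous FDG-low arrays lay far apart, and the heterozygous gate difference was 1.04 without the first such array and 2.39 without the second.

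**Figure D2:**
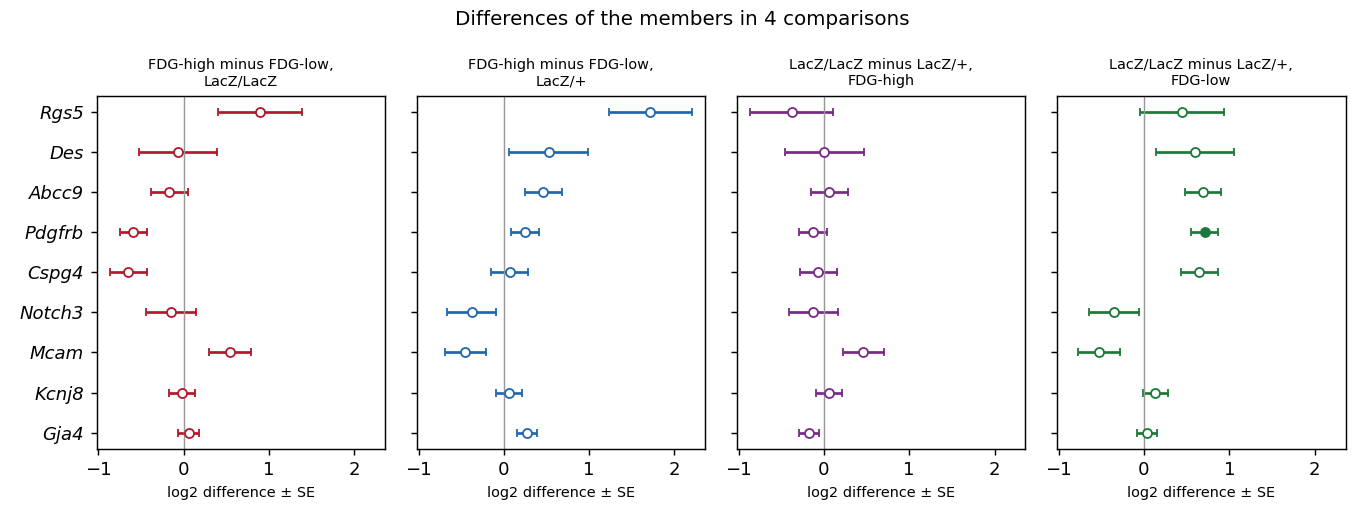
Log2 differences of the 9 members (points) with standard errors (bars) in the gate comparisons (FDG-high minus FDG-low) and the genotype comparisons (homozygous minus heterozygous); filled points passed an adjusted p of 0.05. The only filled point is Pdgfrb in the genotype comparison of FDG-low cells.

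Among the receptors, Pdgfrb encodes the receptor through which PDGF-B recruits mural cells. It measured 5.88 and 6.13 in homozygous FDG-high cells, against 6.70 and 6.50 in homozygous FDG-low cells, and in heterozygous glands 5.98 and 6.30 in FDG-high cells against 5.78 and 5.99 in FDG-low cells. Only the homozygous FDG-low group stood clear of the background level on both arrays. The gate difference was -0.59 ± 0.16 in homozygous glands (limma, adjusted p = 0.20) and 0.25 ± 0.16 in heterozygous glands (adjusted p = 0.70). In homozygous glands the FDG-high arrays lay below the FDG-low arrays without overlap, as they did for 23.3% of all genes.

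Notch3 encodes the Notch receptor of mural cells, which keeps smooth muscle and pericytes in their mature state. It measured 6.74 and 6.73 in homozygous FDG-high cells, against 6.90 and 6.87 in homozygous FDG-low cells, and 6.39 and 7.33 in heterozygous FDG-high cells against 7.06 and 7.42 in heterozygous FDG-low cells. The homozygous arrays were tightly paired and lay lower in FDG-high cells without overlap, whereas the heterozygous gates overlapped. The gate differences of -0.15 ± 0.29 (homozygous, limma, adjusted p = 0.90) and -0.38 ± 0.29 (heterozygous, adjusted p = 0.77) did not pass. Their SE combines the spread of Notch3 within all 4 groups with a prior taken from all genes. Notch3 varied most between the heterozygous FDG-high arrays.

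The surface proteins Cspg4 and Mcam did not follow Rgs5. Cspg4 encodes the proteoglycan NG2, which is also made by other stromal precursor cells. It measured 7.26 and 7.21 in homozygous FDG-high cells, against 7.89 and 7.87 in homozygous FDG-low cells, and 7.59 and 7.01 in heterozygous FDG-high cells against 7.44 and 7.02 in heterozygous FDG-low cells. The homozygous gates did not overlap (difference -0.65 ± 0.22, limma, adjusted p = 0.28), whereas the heterozygous gates overlapped (0.07 ± 0.22, adjusted p = 0.97).

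Mcam encodes the adhesion molecule CD146, found on mural cells and on endothelium. It measured 7.78 and 8.38 in homozygous FDG-high cells, against 7.54 and 7.54 in homozygous FDG-low cells, and 7.72 and 7.51 in heterozygous FDG-high cells against 8.33 and 7.80 in heterozygous FDG-low cells. The groups were separated in both genotypes but in opposite directions, and the interaction was 0.99 ± 0.35 (limma, adjusted p = 0.26). In that contrast 0 members and 0.814% of all genes passed, and 2 members (Pdgfrb and Mcam) and 14.3% of all genes had an unadjusted p under 0.05. The other Mcam probes gave homozygous gate differences of 0.14 and 0.06, and heterozygous ones of -0.44 and -0.39, and both overlapped between the gates of homozygous glands, where only the brightest probe was separated.

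The channel and junction genes were dim. Abcc9 encodes SUR2, the regulatory subunit that pairs with the pore subunit Kir6.1, encoded by Kcnj8, to form the ATP-sensitive potassium channel of pericytes. Abcc9 measured 6.12 and 6.63 in homozygous FDG-high cells, against 6.45 and 6.64 in homozygous FDG-low cells, and 6.11 and 6.52 in heterozygous FDG-high cells against 5.73 and 5.97 in heterozygous FDG-low cells. On both heterozygous FDG-low arrays all its probes were below the background level. On the first heterozygous FDG-high array only its other probes were above background, not the brightest. The heterozygous gate difference was 0.46 ± 0.22 and did not pass (limma, adjusted p = 0.55). With the dim arrays raised to their background level the means differed by 1.14-fold, a bound that leaves out the spread between arrays.

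Kcnj8, next to Abcc9 in the gene order of chromosome 6, stayed between 5.80 and 6.24 over all arrays. It was above background on 1 homozygous FDG-high, 1 homozygous FDG-low, 0 heterozygous FDG-high and 1 heterozygous FDG-low array. Gja4, which encodes a gap junction protein of arterial walls, stayed between 5.67 and 6.12 and was above background on 1 heterozygous FDG-high array. A change in these genes was not detectable at this signal, which is different from an absence of their transcripts.

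Des encodes desmin, the intermediate filament of muscle and of many pericytes. It measured 6.82 and 7.69 in homozygous FDG-high cells, against 6.95 and 7.70 in homozygous FDG-low cells, and 6.96 and 7.54 in heterozygous FDG-high cells against 6.23 and 7.22 in heterozygous FDG-low cells. The gates overlapped in both genotypes, with differences of -0.07 ± 0.46 (homozygous; limma, adjusted p = 0.98) and 0.52 ± 0.46 (heterozygous; adjusted p = 0.80). Skeletal muscle markers were low on all arrays, with mean log2 intensities of 5.85 to 6.05 and 2 of 10 above background on both arrays of at least 1 group. Acta1, Ckm, Myh1 and Myh4 were each above background on 0 arrays.

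Over all 9 members, the median gate difference was -0.07 in homozygous and 0.25 in heterozygous glands, against -0.01 for all genes in both. In homozygous glands 2 members were higher in FDG-high cells without overlap (Rgs5 and Mcam) and 3 lower (Pdgfrb, Cspg4 and Notch3), where 21.3% and 23.3% of all genes were. In heterozygous glands 3 were higher (Rgs5, Abcc9 and Gja4) and 1 lower (Mcam), where 18.5% and 20.5% of all genes were. Of these, Gja4 was above background on only 1 heterozygous array, and Abcc9 on neither heterozygous FDG-low array. With 2 arrays a group such separation was common among all genes, and the members' counts cannot be set apart from this background. The place of Mcam among the higher members in homozygous glands rests on its brightest probe, since its other probes overlapped there.

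**Figure D3:**
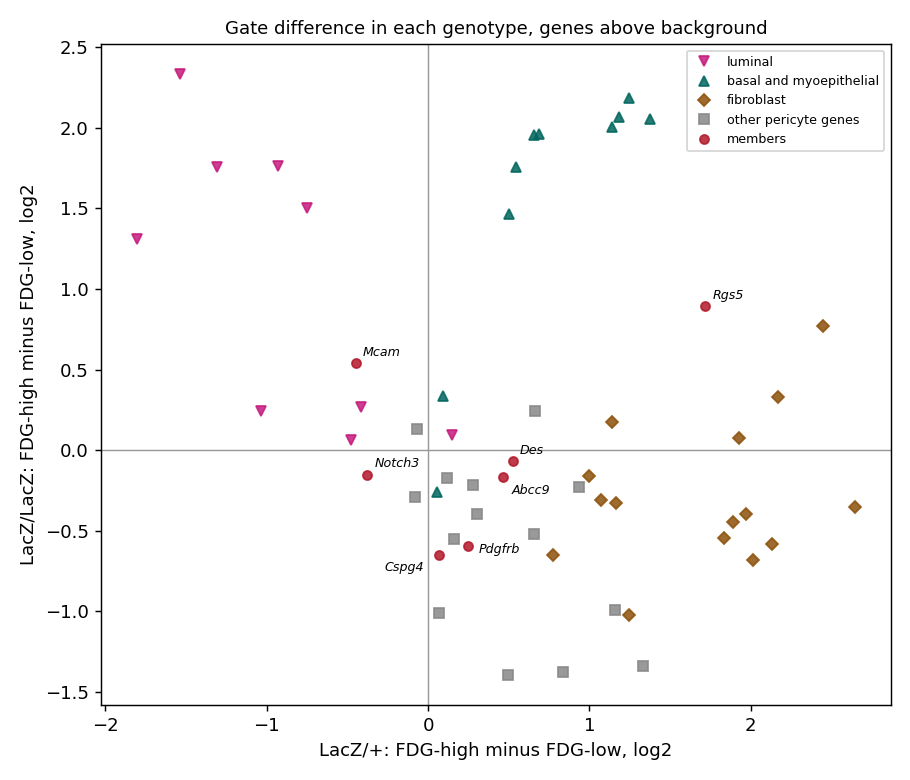
Gate difference (FDG-high minus FDG-low, log2) in heterozygous glands on the horizontal axis and in homozygous glands on the vertical axis. Red circles are the 7 members above background on both arrays of at least 1 group, and the other symbols are luminal, basal and myoepithelial, fibroblast and other pericyte genes that met the same rule. Rgs5 lies in the upper right, at 1.72 and 0.89, and Pdgfrb and Cspg4 lie below 0 on the vertical axis among the other pericyte genes.

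The comparison of genotypes asked whether the markers differed between homozygous and heterozygous cells of the same gate. Homozygous cells carried 2 lacZ alleles and heterozygous cells 1, and the gates were set as shares of cells. The same gate therefore need not mean the same FDG level, and lacZ dose and Axl loss cannot be told apart. In FDG-high cells 0 members and 0% of all genes passed (limma; 3.85% of all genes and 0 members at an unadjusted p under 0.05). The study's rank product test, recoded with 100 permutations, called 202 genes and 0 members. It was run at an unadjusted p under 0.01 with a change of at least 1.5-fold, so its count is not comparable with that of limma. The members' median difference was -0.07, against 0.00 for all genes. Mcam and Kcnj8 were higher and Gja4 lower in homozygous cells without overlap, where 14.4% and 15.6% of all genes were, and Kcnj8 and Gja4 were near background there.

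In FDG-low cells 1 of the 9 members was called, Pdgfrb, which rose in homozygous relative to heterozygous cells, with 8.41% of all genes called (3.78% higher and 4.63% lower). It averaged 6.60 ± 0.14 in homozygous FDG-low cells and 5.89 ± 0.15 in heterozygous FDG-low cells (log2, SD, n = 2 each). The log2 difference was 0.71 ± 0.16 (limma, adjusted p = 0.047), and since heterozygous FDG-low arrays gave only a bound, the change was at least 1.39-fold. The call sat close to the threshold and was lost without any one of the 4 FDG-low arrays or the homozygous FDG-high arrays (adjusted p of 0.054 to 0.22), and with median centring (0.073) or no background correction (0.059). It was kept when the mean of all probes stood for a gene (limma, adjusted p = 0.043). That setting could not change the difference, since Pdgfrb had 1 probe. The difference also stayed at 0.71 without either heterozygous FDG-high array, as these arrays are outside the comparison.

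At an unadjusted p under 0.05 there were 3 members (Pdgfrb, Cspg4 and Abcc9, each higher in homozygous cells) and 22.4% of all genes. Abcc9 and Cspg4 were higher in homozygous FDG-low cells without overlap but did not pass. Abcc9 differed by 0.69 ± 0.22 (limma, adjusted p = 0.11) and Cspg4 by 0.65 ± 0.22 (adjusted p = 0.13). The bound for Abcc9 was 1.34-fold, and its other probes gave smaller differences of 0.28 and 0.42. Notch3 (-0.35 ± 0.29) and Mcam (-0.53 ± 0.24) were lower without overlap, Mcam by its brightest probe alone: its other probes gave -0.36 and -0.16 and overlapped. In all 3 members were higher and 2 lower without overlap, where 24.8% and 25.6% of all genes were. Rgs5 and Des overlapped between the genotypes. The members' median was 0.45, against 0.00 for all genes. The gate and genotype comparisons share arrays: the homozygous FDG-low arrays enter both the homozygous gate difference of Pdgfrb and Cspg4 and their FDG-low genotype difference. The interaction for Pdgfrb was -0.84 ± 0.23 (adjusted p = 0.16) and for Cspg4 -0.72 ± 0.31 (adjusted p = 0.37).

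Several other pericyte genes were higher in the same comparison. Of 18 other pericyte genes measured, 3 rose in homozygous relative to heterozygous FDG-low cells, 0 fell, and 0 passed in either gate comparison. Of all genes, 3.78% rose and 4.63% fell in that comparison. The list's median there was 0.46, against 0.00 for all genes, and 14 of the 18 were above background, against 57.9% of all genes. Enpep, an aminopeptidase that degrades angiotensin peptides, was 2.54 ± 0.45 higher on the log2 scale (limma, adjusted p = 0.025), the T-box factor Tbx18 1.92 ± 0.29 (adjusted p = 0.015) and the transcription factor Ebf1 1.69 ± 0.21 (adjusted p = 0.0095). Their mean log2 intensities were 9.07, 8.20 and 8.08 in homozygous FDG-low cells, against 6.53, 6.27 and 6.39 in heterozygous FDG-low cells. The Tbx18 call was lost without any one FDG-low array, that of Enpep without the first heterozygous or either homozygous one, and that of Ebf1 without either homozygous one. The interaction passed for Ebf1 (-2.15 ± 0.30, adjusted p = 0.042) and was lost when any single array was left out, except heterozygous FDG-high array 1. Vtn, which encodes vitronectin, differed by 2.05 ± 0.59 and did not pass (adjusted p = 0.093). Ebf1 is also made by fibroblasts and adipocyte precursors, and none of the 3 is restricted to pericytes.

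Of 16 vascular smooth muscle genes measured, 13 were above background, and in the homozygous gate comparison 2 passed (0.392% of all genes did), with a list median of 0.21 against -0.01 for all genes. Acta2, the smooth muscle actin, was 1.76 ± 0.15 higher in FDG-high than in FDG-low cells of homozygous glands (limma, adjusted p = 0.021) and the tropomyosin Tpm2 1.35 ± 0.15 (adjusted p = 0.038), with 0 lower. Both calls were lost without the first homozygous FDG-high or either homozygous FDG-low array, and that of Tpm2 also without either heterozygous FDG-low array. In heterozygous glands 0 passed. In FDG-low cells the list's median was -0.07, against 0.00 for all genes, with 7 positive and 9 negative differences. There 0 genes rose and 3 were lower in homozygous than in heterozygous cells: Acta2 (-1.62 ± 0.15, limma, adjusted p = 0.0054), Tpm2 (-1.11 ± 0.15, adjusted p = 0.013) and Actg2, the enteric actin, which was at least 2.61-fold lower (adjusted p = 0.049). The FDG-low calls of Tpm2 and Actg2 were lost without any one of the FDG-low arrays, that of Actg2 also without either heterozygous FDG-high array (adjusted p = 0.066) or without background correction (0.12), and that of Acta2 without homozygous FDG-low array 1 (adjusted p = 0.0505). With the mean of all probes of a gene, Tpm2 passed in neither comparison (adjusted p = 0.26 and 0.089). This list shares 5 genes with the basal and myoepithelial list, and myoepithelial cells of the mammary gland are rich in Acta2.

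Ligands and partners of the mural cell pathways were examined next. Of 27 signalling genes, 19 were above background, and 1 passed in the homozygous gate comparison. Pdgfa, a ligand of the PDGF receptors, was 1.82 ± 0.14 higher in homozygous FDG-high than FDG-low cells (limma, adjusted p = 0.015), and the vasoconstrictor precursor Edn1 did not pass (1.09 ± 0.15, adjusted p = 0.058). In FDG-low cells, Angpt2 (1.37 ± 0.25) and Tie1 (at least 1.42-fold) rose and Edn1 (-2.51 ± 0.15) and Pdgfa (-1.83 ± 0.14) fell in homozygous relative to heterozygous cells. Pdgfra, the partner receptor and a fibroblast marker, differed by 2.48 ± 0.62 without passing (adjusted p = 0.064). The interaction passed for Pdgfa (1.86 ± 0.19, adjusted p = 0.024) and Edn1 (2.43 ± 0.21, adjusted p = 0.013). Leaving out any one of the 4 FDG-low arrays ended the interaction calls and the calls of Angpt2 and Tie1. The interaction calls were also lost without the second heterozygous FDG-high array, that of Pdgfa without the first homozygous FDG-high array too, and the gate call of Pdgfa without that array or either homozygous FDG-low array. Angpt2 did not pass with the mean of its probes (0.67, adjusted p = 0.27). Tie1 is an endothelial receptor. Among 7 channel, junction and filament genes, the connexin Gjc1 (2.11 ± 0.37, adjusted p = 0.025) and the filament gene Vim (1.88 ± 0.36, adjusted p = 0.030) rose in homozygous relative to heterozygous FDG-low cells. The Gjc1 call was lost without any one FDG-low array and the Vim call without the first heterozygous or either homozygous one.

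Markers of other cell types moved in the same comparisons, and their part in the members' differences was not tested. The mean log2 intensity of 15 fibroblast markers was 9.51 and 9.93 in homozygous FDG-high, 9.99 and 10.01 in homozygous FDG-low, 9.32 and 10.17 in heterozygous FDG-high and 7.35 and 8.75 in heterozygous FDG-low cells. The 2 heterozygous FDG-low arrays had the lowest fibroblast means, and Abcc9 was also lowest on these 2 arrays. The first of them held the lowest values of Rgs5, Pdgfrb, Des and Gja4 as well. The other members were not lowest there: Cspg4 measured 7.44, Notch3 7.06, Mcam 8.33 and Kcnj8 6.21. In FDG-low cells 7 of 15 fibroblast markers rose in homozygous relative to heterozygous cells and 0 fell, and 6 of 9 luminal markers fell and 0 rose. For luminal markers (9 measured) the means were 8.79 and 8.43, 7.54 and 7.60, 8.38 and 8.66, and 9.32 and 9.53 in the same order of groups, so luminal markers were highest where fibroblast markers were lowest. For basal and myoepithelial markers (10 measured) they were 9.53 and 9.04, 7.67 and 7.80, 9.63 and 9.32, and 8.99 and 8.46, lowest in homozygous FDG-low cells, where Acta2 and Tpm2 were also lowest.

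Endothelial markers had means of 6.25 to 6.80 over the arrays, and 10 of 14 measured were above background on both arrays of at least 1 group, against 57.9% of all genes. Pecam1, which encodes the CD31 used in the dump gate, was above background on all 8 arrays, as were Tek, Emcn, Esam and Robo4. Egfl7 and Vwf were above it on 7 arrays, Flt1 and Sox17 on 4 and Tie1 on 2, while Cdh5, Kdr and Eng were on 0 and Sox18 was on 2 without holding on both arrays of a group. Of 6 leukocyte markers, 1 was above background, and Ptprc, which encodes CD45, was not. Skeletal muscle Tnnt3 was above background in homozygous FDG-low cells alone, where it was at least 1.89-fold higher than in heterozygous FDG-low cells (limma, adjusted p = 0.010). The means of erythrocyte markers were 5.90 and 6.04 in homozygous FDG-high and 7.41 and 7.34 in homozygous FDG-low cells, and 5.88 and 6.19 in heterozygous FDG-high and 6.35 and 6.73 in heterozygous FDG-low cells.

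**Figure D4:**
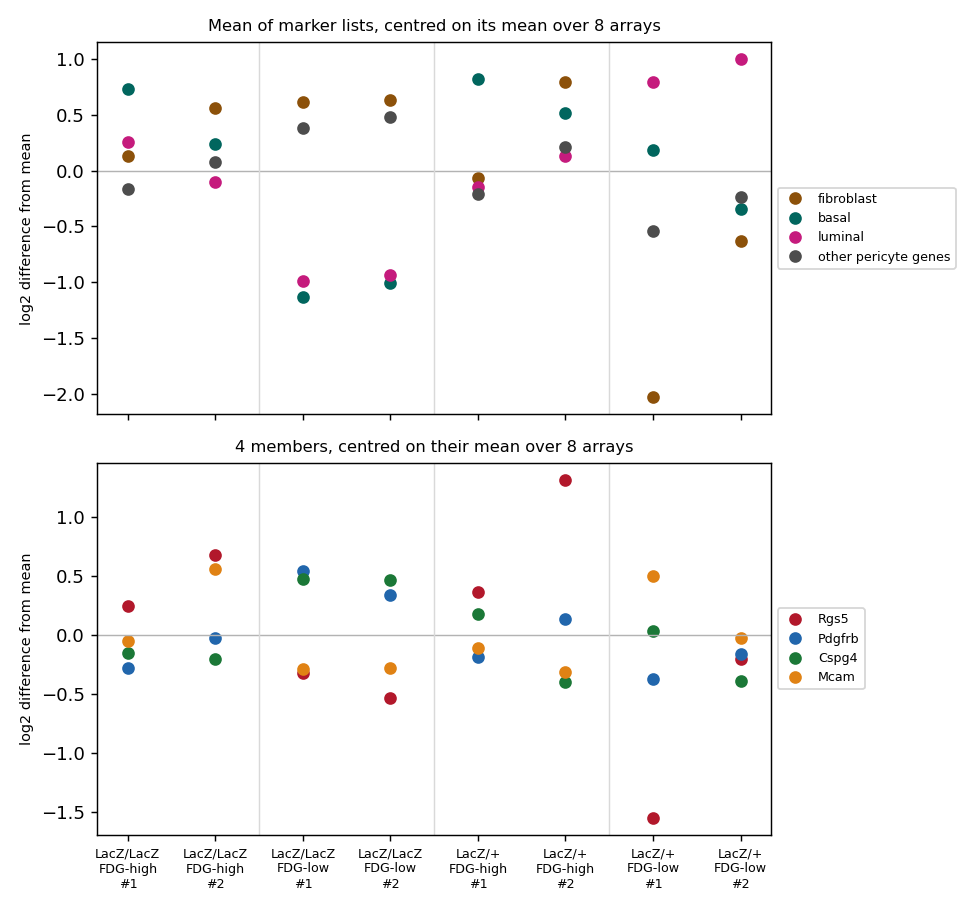
Mean log2 intensity of marker lists, and intensity of Rgs5, Pdgfrb, Cspg4 and Mcam, each centred on its own mean over the 8 arrays and drawn by array and group. The fibroblast list is lowest on both heterozygous FDG-low arrays, and the luminal list is highest there. Pdgfrb is lowest on the first of these arrays. On the second it lies slightly above the first homozygous and the first heterozygous FDG-high array, where the fibroblast list is higher.

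The members were also compared with each other by their profiles over the 8 arrays. The likeness of 2 genes was measured as the root mean square difference between log2 profiles centred on each gene's mean, so a smaller value is more alike. Abcc9 and Pdgfrb were the closest pair of members above background (0.21), followed by Des and Abcc9 (0.26) and Pdgfrb and Cspg4 (0.30). Rgs5 was at least 0.63 from every other member, its nearest being Des. The profiles were not scaled, and Rgs5 ranged over 2.87 log2 units, against 0.44 to 1.47 for the other members. Its distance therefore cannot tell a different pattern from a larger range. Kcnj8 and Gja4 (0.20) were alike in that both stayed near background.

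Among 9601 candidate genes above background, the closest to Rgs5 were Dpp4 (0.37), Sfrp4 (0.38) and Igdcc4 (0.40), against a median of 0.86. Dpp4 encodes a serine protease of fibroblast membranes and Sfrp4 a secreted Wnt antagonist. The closest to Pdgfrb were Hspa12a (0.065), Arhgap29 (0.090) and Bmpr2 (0.095), a BMP receptor. Those nearest to Abcc9 were Nfix, Plce1 and Gng11 (0.095 to 0.10), those nearest to Cspg4 were Il27ra, Pnma1 and Ppp2r2c (0.083 to 0.11) and those nearest to Notch3 were Myl12b, Smim7 and Ptprj (0.12 each). Des was nearest to Zfhx3, Slc39a13 and Smpdl3a (0.20 to 0.21) and Mcam to Parl, Mkks and Cdc42ep4 (0.10 to 0.13). Likeness over 8 arrays in 4 groups describes these arrays alone.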

How the data were processed

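RNA was labelled and hybridised to Illumina mouse bead arrays, 8 in 4 groups of 2, with group and replicate number taken from the sample titles. The authors deposited linear intensities per probe, as the values show; the arrays differ in distribution and no log was taken, although the series' design text speaks of log2 quantile normalized values. How the scanner output became these intensities is not stated in the labels. They were corrected with normexp (offset 50), quantile normalized and log2 transformed with limma 3.58.1 in R 4.3.3. The offset understates the change of dim genes. The array type in the design text is larger than the 25697 probes of the value table.

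Probes were named from the platform annotation (23978 with 1 symbol, 0 with several, 1719 without). The GRCm38.p6 gene table held 23962 of the named probes, changed 0 symbols and served for names and gene order. The number of arrays limits the precision of every value. One limma model with 4 group means was fitted (4 residual and 2.36 prior degrees of freedom); tests were two-sided and p-values adjusted over 16593 genes with the Benjamini-Hochberg method. The test design had allowed for linear intensities and was used as written. One probe above the background level sufficed to count a gene as above it. For a group with neither array above background, the fold is a bound. It sets the bright group's mean against, per dim array, its own value or the lowest value above background, whichever is higher. The bound leaves out the spread between arrays.

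The members and lists were chosen with earlier results of these data known. The rule for named genes took all members, every list gene that passed a comparison, up to 4 genes per list with the largest gate differences, Axl, and the 3 genes closest to each member above background. The text departs from it: of the lists other than the pericyte, smooth muscle, signalling and channel lists it gives counts and means and names few genes, and Schwann and adipocyte markers, with 2 lower-ranked genes of the channel list and some of the smooth muscle list, are not described. Alternatives covered background correction, normalization, probe rule, filter, variance model, arrays in the fit, arrays left out and a replicate block. Where a replicate number was shared, it was checked as a pairing. The code was tested on simulated data.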

Additional observations from a re-analysis of the deposited data

How the results depend on the processing

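No member passed in a gate comparison, in the FDG-high genotype comparison, in the interaction or in the averaged gate difference under any of the alternatives run. In FDG-low cells the count of members that passed, 1 with the settings of the report, was 0 with no background correction, 0 with log2(value + 16), 0 with median centring and 2 with only the arrays of the comparison, and between 0 and 1 when an array was left out. The labels do not say whether arrays with the same replicate number belong together. The correlation of same-numbered arrays' deviations was 0.397 between heterozygous gates and 0.011 between homozygous gates. Between genotypes it was 0.071 in FDG-high and -0.046 in FDG-low cells. These correlations cannot decide whether the 2 gates of a genotype came from the same pool. With the replicate block, 3 members passed in FDG-low cells (Pdgfrb, Abcc9 and Des). Of 870 recomputed differences of members, 835 kept their sign. Many of them could not change, because the setting altered only the variance or the genes tested, or left out an array outside the comparison. Only 1 member difference was called with the settings of the report (Pdgfrb in FDG-low cells), and it did not reverse. Over the alternatives the Rgs5 gate difference ran from 1.04 to 2.39 in heterozygous and from 0.67 to 1.12 in homozygous glands. Its sign could not turn when an array was left out, since all FDG-high arrays lay above all FDG-low arrays. The probe rule, filter, variance model, arrays in the fit and replicate block left this estimate unchanged. The lowest adjusted p (limma) for Rgs5 was 0.092 and 0.14, with the replicate block within genotype.

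Counts over all genes depended more on the settings. In the heterozygous gate comparison 1 gene passed, with 0 to 6 when an array was left out and 0 to 2 otherwise. In the homozygous gate comparison 65 passed, with 0 to 138 when an array was left out, 193 with median centring, 137 with an intensity trend, 121 with genes above background only, 43 without background correction, 40 with log2(value + 16) and 0 with only the arrays of the comparison. In the FDG-low genotype comparison 1396 passed, with 121 and 157 without the first and the second homozygous FDG-low array and 547 and 570 without the first and the second heterozygous FDG-low array. The interaction gave 135, between 0 and 328 when an array was left out, 81 with log2(value + 16), 253 with genes above background, 277 with the trend and 206 with the replicate block within genotype. The averaged gate difference gave 0, with 7 under median centring, 9 with the trend, 1 with genes above background and 3 with the block within genotype. In FDG-high cells the genotype comparison gave 0, 1 with genes above background or the trend, and 202 by the rank product at its unadjusted threshold. The cause of these changes was not tested beyond the smaller number of arrays or genes. Pdgfa, Edn1 and Tnnt3 in FDG-low cells passed under every alternative run. Acta2, Tpm2 and Pdgfa in the homozygous gate comparison were lost when the first homozygous FDG-high array or any homozygous FDG-low array was left out, and with only the arrays of the comparison. Pdgfrb, Kcnj8, Gja4 and Abcc9 lay close to background, which limits the size of any change that could be measured in them.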

Other observations

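Des and Abcc9 were higher on the array numbered 2 than on the array numbered 1 in 4 of 4 groups, and Cspg4 in 0 of 4. The largest such gap in Des was 0.99 on the log2 scale, in heterozygous FDG-low cells, where Des had 7.22 on one array and 6.23 on the other. The labels do not say that the number marks a shared preparation.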
